A study of Homo sapiens with 4 samples.

Results

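Genes that carry, phosphorylate, deaminate, release or sense adenosine were examined in MDA-MB-231 Fluc cells, by looking up 10 gene symbols, ADK, ADA, SLC29A1, SLC29A2, NT5E, NT5C2, AMPD2, ADORA1, ADORA2B and AHCY, in the deposited gene table. Of these 10 genes, 9 were among the 13957 genes of the table, and the adenosine A1 receptor gene ADORA1 was not. For comparison with this and later counts, 42.1% of the 20046 protein-coding genes of GENCODE release 44 were not in the table. MDA-MB-231 cells derive from a breast tumour of the triple-negative kind, and the Fluc line carries an inserted luciferase gene for imaging. Cordycepin was given at 50 μM for 2 h to 2 samples, and 2 control samples received only its solvent, DMSO, for the same time. The libraries were stranded, depleted of ribosomal RNA and sequenced as 75 bp paired-end reads. Nothing in the labels says whether duplicates came from separate cultures.

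The value used here is the authors' mean expression of a gene over the libraries, as log2 CPM (counts scaled to library size). It joins cordycepin-treated and DMSO-treated cells in 1 number per gene. Levels with cordycepin were therefore not separated from levels with DMSO, library depths are unknown, and no SD or test is given. The comparison of cordycepin with DMSO was not analysed here.

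Cordycepin is 3′-deoxyadenosine, an analogue of adenosine without the 3′ hydroxyl group, and is handled by much of the machinery that handles adenosine. Adenosine enters cells through nucleoside carriers, is phosphorylated to AMP by adenosine kinase, or is deaminated to inosine by adenosine deaminase. Cells also make adenosine, outside from AMP by an ecto-5′-nucleotidase and inside from S-adenosylhomocysteine. Extracellular adenosine is sensed by a family of G protein-coupled receptors. The triphosphate of cordycepin can end a growing poly(A) tail, since it offers no 3′ hydroxyl group for the next nucleotide.

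The ends of the transcripts are shown because polyadenylation starts there. In the canonical GENCODE transcript of 8 of the 9 genes, the poly(A) signal AATAAA was found within the last 40 bases, read on the strand of the transcript. Its first base lay between 20 and 30 bases from the end. Each stretch below runs from this hexamer, in capitals, to the annotated end of the transcript (GRCh38).
NT5E, chr6:85495764-85495784, plus strand: AATAAAattgaagataagctc
AHCY, chr20:34280268-34280290, minus strand: AATAAAaatcttggtgcctggaa
SLC29A1, chr6:44234120-44234142, plus strand: AATAAAcctttcttgtttttttc
ADORA2B, chr17:15975719-15975746, plus strand: AATAAAagttgactgtactaaaaatgta
ADK, chr10:74709267-74709290, plus strand: AATAAAtcacttttttaaggatga
NT5C2, chr10:103088038-103088057, minus strand: AATAAAtattcaagaactga
AMPD2, chr1:109632032-109632051, plus strand: AATAAAgattatttaagtaa
ADA, chr20:44619522-44619551, minus strand: AATAAAgaagcccatggctggtggcatgca

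The canonical transcript of SLC29A2 held neither AATAAA nor the common variant ATTAAA in this window. Of 11603 protein-coding genes of the table, 65.7% held AATAAA there, 15.2% held ATTAAA without AATAAA, and 19.1% held neither. These matches describe annotated ends and do not show which ends were used in these cells.

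Levels of different genes were compared per kb of gene length, as the mean log2 CPM less the log2 of the length in kb that the table gives. On this scale the median of all genes was 2.43, and the middle 50% of genes lay between 0.94 and 3.88. The adenosine genes ranged from 0.38 for ADA to 7.46 for NT5E, with a median of 4.58. Of the 9 genes, 8 lay above the median of all genes, and only ADA lay below it. NT5E, AHCY and SLC29A1 were within the highest 10% of genes.

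**Figure D1:**
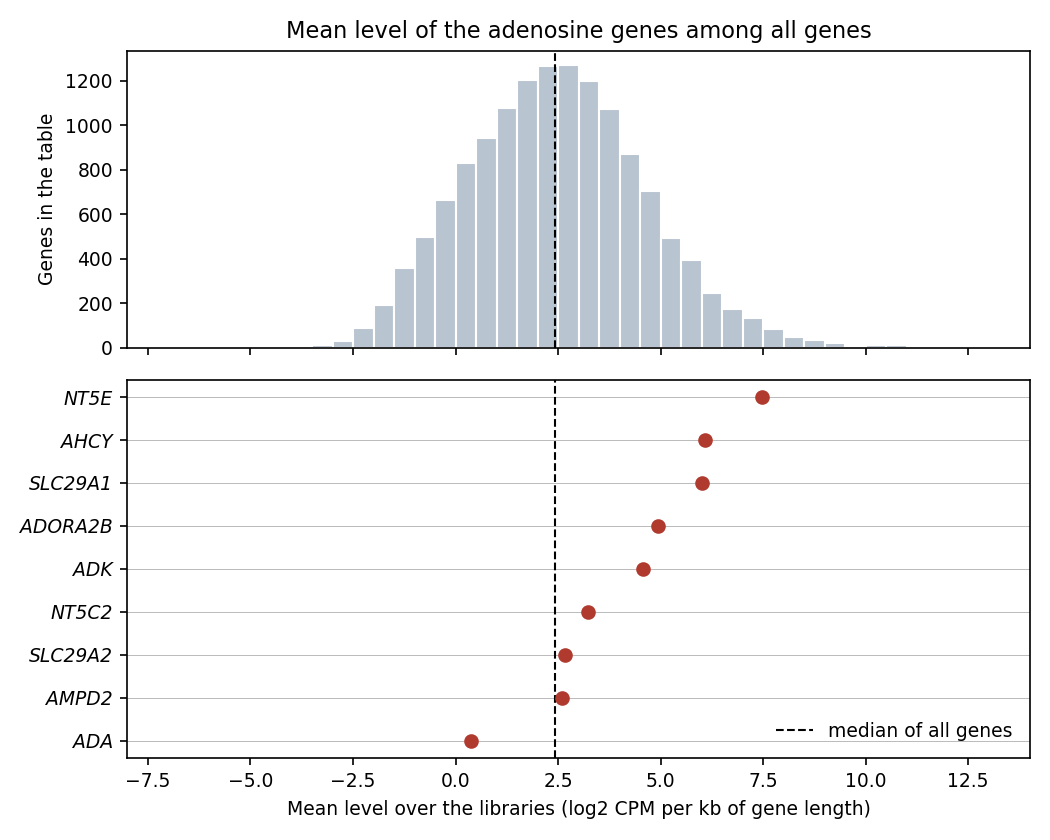
The upper panel is a histogram of all 13957 genes by mean level in log2 CPM per kb of gene length, and the lower panel shows the 9 adenosine genes on the same axis, with the median of all genes (2.43) as a dashed line. NT5E stands at 7.46, AHCY and SLC29A1 near 6, and ADA, at 0.38, is the only point to the left of the line.

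Carriers were examined first. SLC29A1 encodes ENT1, an equilibrative carrier through which nucleosides and many nucleoside drugs cross the plasma membrane. SLC29A1 (chromosome 6, 44219553 to 44234142, plus strand) had a mean log2 CPM of 8.12 and a level per kb of 6.01, at percentile 94.4 of all genes. SLC29A2, which encodes the related carrier ENT2 (chromosome 11, 66362521 to 66372214, minus strand), had a mean log2 CPM of 4.12 and a level per kb of 2.67, at percentile 54.4. SLC29A1 was thus 10.1 times as abundant as SLC29A2 per kb of gene length, and 18.9 times per kb of canonical transcript. Both canonical transcripts encode 456 amino acids. The other equilibrative carriers were lower, with levels per kb of 0.12 for SLC29A3, which encodes a carrier of intracellular membranes, and -0.74 for SLC29A4, which encodes a carrier of monoamines and adenosine. The concentrative carriers SLC28A1, SLC28A2 and SLC28A3, which couple nucleoside uptake to sodium, were not among the genes of the table analysed here.

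Phosphorylation of cordycepin to its monophosphate is ascribed to adenosine kinase, encoded by ADK. ADK (chromosome 10, 74151202 to 74709963, plus strand) spans 559 kb and has 11 exons in its canonical transcript. Its mean log2 CPM was 6.80 and its level per kb was 4.58, at percentile 83.8. Among other nucleoside kinases, DGUOK, the mitochondrial deoxyguanosine kinase, had a level per kb of 4.61, and DCK, the deoxycytidine kinase that also accepts deoxyadenosine, had 4.08. The ratio of ADK to DGUOK was 0.98 per kb of gene length but 1.69 per kb of canonical transcript, so their order depends on the length used. The ratio of ADK to DCK was 1.42 and 2.67 on these scales. TK1, a thymidine kinase of dividing cells, had the highest level of this list at 6.76, and all 7 listed nucleoside kinases were in the table. Genes of the kinase families that include enzymes carrying AMP on to ADP and ATP were looked up as well. Of 16 adenylate and nucleoside diphosphate kinases, 12 were in the table, 9 of them above the median of all genes. The nucleoside diphosphate kinase genes NME1 and NME2 had levels per kb of 4.92 and 4.86. NME1 and NME2 resemble each other and are neighbours on the chromosome, so the split of reads between them is uncertain.

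Deamination removes adenosine and cordycepin, and its gene ADA was the lowest of the adenosine genes. ADA (chromosome 20, 44619522 to 44652233, minus strand) had a mean log2 CPM of 1.87, or 3.66 CPM. The lowest gene of the table had a mean log2 CPM of 0.56, or 1.47 CPM. The level of ADA per kb was 0.38, at percentile 17.8. ADK was 18.4 times as abundant as ADA per kb of gene length, 22.9 times per kb of canonical transcript and 79.8 times per kb of merged GENCODE exons, which are longer for ADA than the length in the table. ADAL, which encodes an ADA-like enzyme, had 0.42, and its ratio to ADA was 1.03, 0.74 and 4.46 on these 3 scales, so their order is not settled. DPP4, whose product binds extracellular ADA at the cell surface, had -1.18, and ADA2, which encodes a secreted deaminase, was not among the genes of the table analysed here. AMPD2, which encodes an enzyme that deaminates AMP to IMP, was higher. AMPD2 (chromosome 1, 109616104 to 109632053, plus strand) had a mean log2 CPM of 5.75 and a level per kb of 2.59, at percentile 52.9. This was 7.83 times the level of AMPD3, and AMPD1, the muscle form, was not among the genes of the table. The list of deaminases held 7 genes, and DPP4 was placed on it only because its product binds ADA. Of these 7 genes, 5 were in the table, DPP4 among them, and only AMPD2 was above the median of all genes.

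The 5′-nucleotidases, a family that includes enzymes that form adenosine, were examined next. NT5E encodes CD73, the cell surface enzyme that releases adenosine from extracellular AMP. NT5E (chromosome 6, 85449584 to 85495791, plus strand) had a mean log2 CPM of 9.64, or 798 CPM, and a level per kb of 7.46, ranking 245 of 13957 genes. It was 2.59 times as abundant per kb of gene length as AHCY, the next adenosine gene. Its ratio to ADA was 135 per kb of gene length, 91.7 per kb of canonical transcript and 586 per kb of merged GENCODE exons. NT5C2 encodes a cytosolic nucleotidase that prefers IMP and GMP. NT5C2 (chromosome 10, 103088017 to 103193306, minus strand) had a mean log2 CPM of 5.61 and a level per kb of 3.24, at percentile 64.5. Among the other 5′-nucleotidases, NT5C3B had 4.54, NT5C 3.73, NT5C3A 3.03 and NT5M 0.07 as levels per kb. NT5C1A and NT5C1B were not among the genes of the table. Which of these enzymes act on AMP was not examined, so their levels are not a measure of adenosine formation. Other enzymes supply AMP outside the cell. ENTPD1, which encodes CD39, had a level per kb of -0.51, and ENPP1, which encodes a phosphodiesterase that cleaves ATP to AMP, had 4.57. Of 8 listed ectonucleotidases these were the 2 in the table.

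AHCY encodes the enzyme that splits S-adenosylhomocysteine, the product of methylation reactions, into adenosine and homocysteine. AHCY (chromosome 20, 34280268 to 34311802, minus strand) had a mean log2 CPM of 8.05 and a level per kb of 6.09, at percentile 94.7. MAT2A, which encodes the catalytic subunit that makes S-adenosylmethionine, had 5.85. The AHCY-like genes AHCYL1 and AHCYL2 had 4.93 and 1.81. GENCODE names 6 AHCY pseudogenes, and none of them was in the table. How reads that map to several places were counted is not given in the sources used here, so the AHCY value is uncertain to that extent.

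Of the 4 adenosine receptor genes, 1 was in the table. ADORA2B encodes the A2B receptor, which couples to adenylyl cyclase and has a lower affinity for adenosine than the other subtypes. ADORA2B (chromosome 17, 15944917 to 15975746, plus strand) had a mean log2 CPM of 6.28 and a level per kb of 4.93, at percentile 87.4. Its canonical transcript has 2 exons and encodes 332 amino acids. GENCODE names 1 ADORA2B pseudogene, which was not in the table, so the limit on reads that map to several places applies here too. ADORA1, ADORA2A and ADORA3 were not among the genes of the table, whose lowest mean was 0.56 on the log2 CPM scale. Absence from the table does not show absence of the mRNA, since the filter on low counts is not given in the sources used here.

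Beyond the 9 genes, lists of enzymes and carriers of the pathway held 63 further genes. Of these, 39 were in the table and 24 were not, beside 42.1% of all protein-coding genes not in the table. Presence in the table is therefore not read as a trait of the pathway. Of the 39, 26 lay above the median of all genes, with a median level per kb of 3.55. In purine salvage and AMP synthesis, HPRT1 (6.14), APRT (5.36) and ADSS2 (4.88) were high and ADSL, an enzyme of purine synthesis, was lower at 1.79. PNP, which splits inosine, had 3.52.

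**Figure D2:**
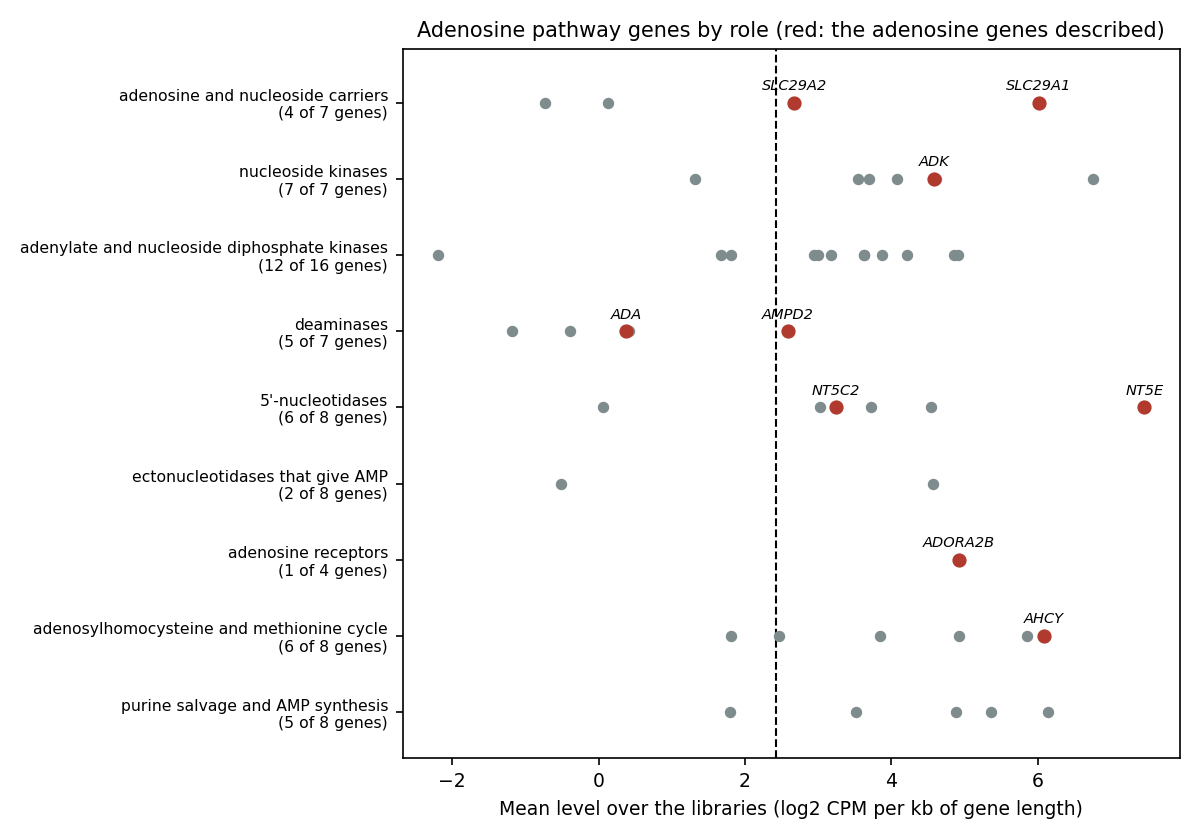
Each point is a gene of the adenosine pathway, placed by its mean level in log2 CPM per kb of gene length, with 1 row for each role and the number of listed genes found in the table. Red points are the 9 adenosine genes, grey points are other genes of the list, and the dashed line is the median of all genes (2.43). NT5E (7.46) is the highest point, and the receptor row holds ADORA2B (4.93) alone. The row of deaminases, which also holds the ADA-binding DPP4, lies mostly to the left of the line.

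The order of the genes was read under other length scalings, since the gene length in the table was 1.11 to 2.34 times that of the canonical transcript. NT5E was highest and ADA lowest per kb of gene length, per kb of canonical transcript, per kb of merged GENCODE exons and without division by length. AHCY and SLC29A1, which differed 1.05-fold per kb, changed places per kb of canonical transcript (6.95 and 7.06). ADORA2B and ADK also changed places there (5.67 and 5.81), as did SLC29A2 and AMPD2 (2.82 and 3.72). Per kb of merged GENCODE exons, NT5C2 (2.42) fell below SLC29A2 (2.67) and AMPD2 (2.53). Without division by length, SLC29A1 (8.12) stood above AHCY (8.05), ADK (6.80) above ADORA2B (6.28) and AMPD2 (5.75) above SLC29A2 (4.12). NT5C2 (5.61) also fell below AMPD2 on that scale. These neighbours have no settled order, and no spread between libraries could be set beside them. SLC29A2 fell below the median of all genes per kb of canonical transcript, at percentile 46.0, and without division by length, at percentile 42.3.

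**Figure D3:**
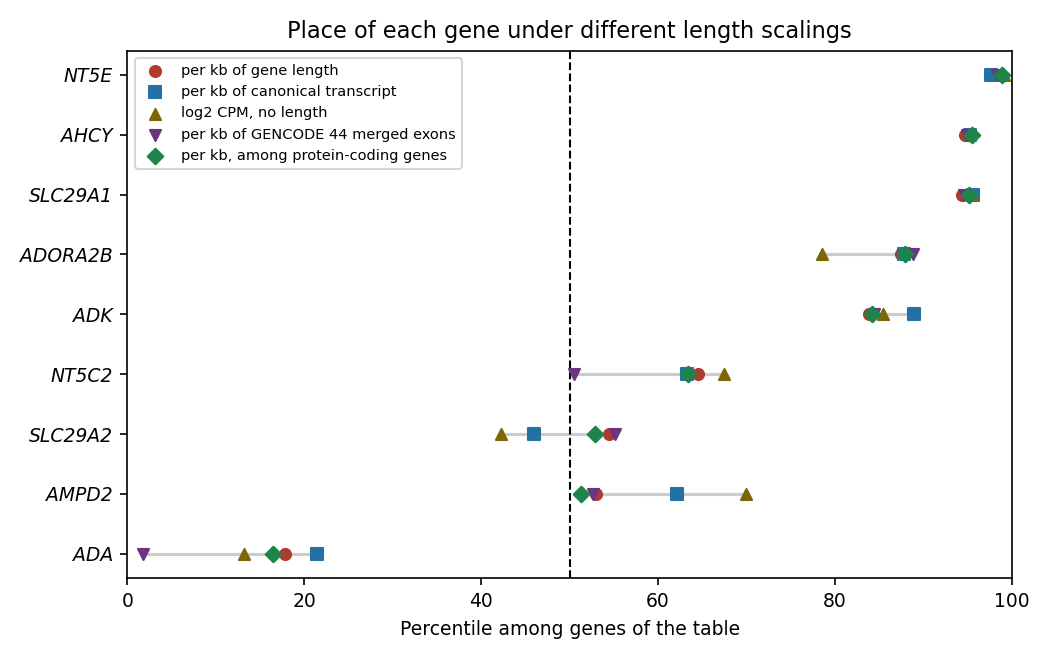
The percentile of each adenosine gene among the genes of the table is shown per kb of gene length, per kb of canonical transcript, as log2 CPM with no length, per kb of merged GENCODE exons, and among protein-coding genes only. The dashed line marks the median. NT5E, AHCY and SLC29A1 stay above percentile 94, SLC29A2 lies on both sides of the line, and ADA is lowest throughout, reaching percentile 1.80 with merged GENCODE exons.

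Some genes share their exons with a gene on the opposite strand. This was so for 4 of the 9, and for 3 of these the partner was in the table. PKIG, which overlaps an exon of ADA, had a mean log2 CPM of 4.35, above the 1.87 of ADA. CNNM2 had 3.00 beside 5.61 for NT5C2, and B4GAT1-DT had 1.01 beside 4.12 for SLC29A2. On the same strand, a long non-coding RNA gene that was not in the table overlaps an exon of AHCY. Whether the strand was used in counting is not given in the sources used here. The part of these overlapping genes in the values was not tested.

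Markers were read to check the labelled cell line. VIM, CD44, AXL and CAV1, genes of mesenchymal-type cells, and EGFR were all above the median, with levels per kb from 4.998 to 8.65. The hormone receptor genes ESR1 and PGR were not among the genes of the table. Of luminal markers, KRT19 was high at 7.12, GATA3 had 2.72, EPCAM 2.40 and CDH1 1.07. Markers of leukocytes and endothelium (PTPRC, CD3E, PECAM1 and CDH5) were not in the table, and the stromal genes COL1A1 and ACTA2 were low at 0.19 and -0.36.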

How the data were processed

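RNA-seq was made from 4 samples, 2 with cordycepin and 2 with DMSO. For read mapping the authors used GRCh38.p13, and for counting rsubread. The submitters' processing notes also name TopHat, HTSeq, DESeq, Cufflinks and hg38, with no role given. The authors deposited 1 table, whose mean expression is in log2 CPM. It also holds the authors' own comparison of cordycepin with DMSO (fold change, F statistic, raw and adjusted p-value), which was not used here. The scaling between libraries and the filter on low counts are not given in the sources used here. The table holds 0 columns of values per sample, so no depth, SD, interval or test could be given.

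The gene length used is that of the authors' deposited table. GENCODE release 44 held 13922 (99.7%) of the IDs, and 88.5% of these had a length within 10% of the merged exons there. Percentiles count genes of the table with a lower level. The percentile function was tested on simulated data. The genes named are the 10 symbols, fixed lists of pathway genes and cell markers. Members and lists were chosen with earlier results of these data known. Alternatives were canonical transcript length, no length, protein-coding genes only, genes above the lowest 25% of mean log2 CPM, matching by older symbols and, chosen after seeing the data, merged exons of GENCODE. Python 3.11.15, pandas 2.3.3, numpy 2.4.6 and matplotlib 3.10.9 were used. The result for 1 listed gene is not reported here.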

Additional observations from a re-analysis of the deposited data

How the results depend on the processing

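No paired analysis was possible because no value of a single library was at hand, and for the same reason no replicate could be left out. The number of adenosine genes above the median of the genes compared was 8 per kb of gene length. It was also 8 among protein-coding genes and with merged GENCODE exons, and 7 per kb of canonical transcript and without division by length. Among genes above the lowest 25% of mean log2 CPM, a filter that ADA did not pass, the number was 6. In that set SLC29A2 (percentile 41.5) and AMPD2 (percentile 39.7) lay below the median. Matching by older symbols and gene IDs left 9 members and 48 pathway genes found. Percentiles ranged from 97.7 to 99.1 for NT5E, 39.7 to 70.0 for AMPD2 and 1.80 to 21.4 for ADA. The low end for ADA came with merged GENCODE exons of 12177 bases in place of the 2809 bases in the table, and its level per kb was then -1.74. NT5C2, with 9137 bases in place of 5156, was then at percentile 50.4. At 3.66 CPM the value of ADA rests on the fewest reads of the 9 genes.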

Other observations

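MTAP, which encodes the enzyme that releases adenine from methylthioadenosine, was on the list of purine salvage genes and was not among the genes of the table analysed here. Its neighbours were then looked up, after this was seen. On chromosome 9 (GRCh38), FOCAD, which ends at 20995955, and TUSC1, which starts at 25676969, were the nearest protein-coding genes in the table on either side of MTAP (21802636 to 21937651). FOCAD had a mean log2 CPM of 2.01 and TUSC1 had 3.34. GENCODE places 24 protein-coding genes between them, over 4.68 Mb, among them 16 interferon genes as well as KLHL9, CDKN2A and CDKN2B. That none of the 24 was in the table follows from the choice of bounds, which were the nearest genes present. Of all 20046 protein-coding genes of GENCODE release 44, 42.1% were not in the table. Why the 24 genes were missing was not tested.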
